A study of Mus musculus with 96 samples.

Results

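The genes described here are 43 transcripts of G2 phase and mitosis, followed across erythroid progenitors of the mouse fetal liver. The members were chosen by name, as rows of the deposited count table whose symbol is on the list, and every member had 1 row among the 49466 rows of the table. The study placed single cells of C57/Bl6J fetal livers at embryonic day 14.5 in 1 plate of 96 wells, with 24 wells for each of 4 sort gates, and sequenced polyadenylated RNA by Smart-seq2, which reads full-length cDNA and carries no molecular identifiers. The livers had been depleted of cells with lineage markers, and the remaining cells were stained for CD117 (Kit), CD71 and CD24. The gates ran from BFUE, the burst-forming unit erythroid, through a lower intermediate gate at 25 to 35% and an upper intermediate gate at 50 to 60% of CD71 and CD24 expression, to CFUE, the colony-forming unit erythroid. No genotype or treatment separated the gates, and the labels name no animal, so the cells of a gate are 1 sample without a replicate. Each gate had its own columns of the plate, so a difference between gates cannot be told apart from one between plate columns.

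Cells were kept with 50000 or more reads, which left 91 of 96. The BFUE gate was split at 100 reads per 1000000 reads of the cell (CPM) of Cd34, a stem and progenitor surface gene, because its cells fell into separate sets. The 5 groups were 8 Cd34-high BFUE cells at 1036 to 2202 CPM of Cd34, 15 Cd34-low BFUE cells at up to 5.16 CPM, 21 lower intermediate, 24 upper intermediate and 23 CFUE cells. A kept cell had from 947458 to 3785903 reads. Erythroid regulators set the Cd34-high cells apart: Gata1 stood at 12.7 CPM there, against 411 CPM in Cd34-low BFUE cells, and Epor at 2.42 CPM against 188 CPM. In the other direction Mpo, a neutrophil granule gene, stood at 2366 CPM in Cd34-high cells, against 13.6 CPM in Cd34-low BFUE cells. The label BFUE therefore covers cells low in the defining erythroid genes, and the Cd34-high cells are kept apart below. The CFUE cell of well D10 was the shallowest kept cell, with 947458 reads and 6361 genes, against a median of 9282 genes in CFUE cells.

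Mitotic genes are transcribed late in the cell cycle. Cyclin B with its kinase Cdk1 drives entry into mitosis, and kinetochores attach the chromosomes to the spindle. The spindle checkpoint delays anaphase until the chromosomes are attached, and the anaphase-promoting complex then marks securin and the cyclins for destruction. Erythroid progenitors of the fetal liver divide repeatedly between the burst-forming and the colony-forming stage. CPM gives the share of a cell's reads that a gene takes, so it measures neither the number of molecules nor the length of a phase.

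Late cell-cycle promoters are known for CCAAT boxes and for a cell cycle homology region with letters such as TTTGAA, and these letters were searched on both strands of RefSeq windows of GRCm38.p6, from 250 bases before to 50 after each start. Of the 43 members, 36 had a window. TTTGAA or TTCGAA was present in 80.6% of them, against 21.7% of all 27025 genes with a window. CCAAT was present in 83.3% of the members, against 41.1% of all genes, and at 2 or more places in 55.6% against 13.3%. TTTGAA or TTCGAA began 20 to 60 bases after a CCAAT in 55.6% of the members, against 1.72% of all genes. A match describes letters, not a bound site.

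Some members with a large and some with a small difference between CFUE and upper intermediate cells are shown side by side. Each is given 5′ to 3′ on the strand of its gene, with matched letters in capitals on either strand. The windows of Prc1 and Cenpf, which had larger ratios than Ube2c, are not shown. Cdc25b lies at chr2:131186698-131186997 on the plus strand, Kif23 at chr9:61946750-61947049 on the minus strand, Cenpe at chr3:135212313-135212612 on the plus strand, Aurka at chr2:172370521-172370820 on the minus strand and Ube2c at chr2:164769679-164769978 on the plus strand. Cenpa and Nek2, with nearly equal levels in both gates, lie at chr5:30666636-30666935 on the plus strand and chr1:191821223-191821522 on the plus strand. Pttg1, which varied least with the other members, lies at chr11:43425932-43426231 on the minus strand.
Cdc25b: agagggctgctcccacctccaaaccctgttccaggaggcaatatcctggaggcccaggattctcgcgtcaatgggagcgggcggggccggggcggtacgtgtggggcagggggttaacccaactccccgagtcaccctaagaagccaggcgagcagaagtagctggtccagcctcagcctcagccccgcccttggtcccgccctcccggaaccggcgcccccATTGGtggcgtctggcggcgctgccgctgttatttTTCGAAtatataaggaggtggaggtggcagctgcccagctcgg
Cenpe: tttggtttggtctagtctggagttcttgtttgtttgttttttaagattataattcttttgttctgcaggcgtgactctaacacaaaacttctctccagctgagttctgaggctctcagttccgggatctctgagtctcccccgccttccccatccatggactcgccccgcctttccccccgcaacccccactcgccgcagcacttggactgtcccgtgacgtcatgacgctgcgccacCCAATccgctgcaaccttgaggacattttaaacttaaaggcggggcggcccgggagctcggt
Kif23: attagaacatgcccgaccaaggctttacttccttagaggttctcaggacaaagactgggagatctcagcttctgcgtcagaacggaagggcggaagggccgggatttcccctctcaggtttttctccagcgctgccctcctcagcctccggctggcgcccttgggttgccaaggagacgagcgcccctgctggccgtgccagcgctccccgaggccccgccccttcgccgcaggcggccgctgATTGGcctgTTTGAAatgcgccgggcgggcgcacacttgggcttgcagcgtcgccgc
Aurka: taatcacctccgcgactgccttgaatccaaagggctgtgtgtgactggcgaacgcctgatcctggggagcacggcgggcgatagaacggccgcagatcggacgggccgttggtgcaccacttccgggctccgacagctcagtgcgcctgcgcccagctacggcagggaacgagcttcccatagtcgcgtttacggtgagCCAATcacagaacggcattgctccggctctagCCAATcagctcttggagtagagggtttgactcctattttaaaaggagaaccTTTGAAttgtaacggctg
Ube2c: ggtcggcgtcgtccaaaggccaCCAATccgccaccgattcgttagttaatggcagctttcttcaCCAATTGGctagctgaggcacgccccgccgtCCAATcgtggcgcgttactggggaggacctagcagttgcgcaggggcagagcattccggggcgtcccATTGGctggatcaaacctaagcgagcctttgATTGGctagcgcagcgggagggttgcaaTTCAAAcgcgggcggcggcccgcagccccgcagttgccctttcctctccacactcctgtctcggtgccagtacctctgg
Cenpa: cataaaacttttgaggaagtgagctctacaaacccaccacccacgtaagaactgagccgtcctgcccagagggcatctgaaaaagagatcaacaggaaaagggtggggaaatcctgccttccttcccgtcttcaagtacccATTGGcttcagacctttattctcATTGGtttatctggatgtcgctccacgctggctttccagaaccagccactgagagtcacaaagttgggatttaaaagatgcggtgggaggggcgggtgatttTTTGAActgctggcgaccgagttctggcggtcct
Nek2: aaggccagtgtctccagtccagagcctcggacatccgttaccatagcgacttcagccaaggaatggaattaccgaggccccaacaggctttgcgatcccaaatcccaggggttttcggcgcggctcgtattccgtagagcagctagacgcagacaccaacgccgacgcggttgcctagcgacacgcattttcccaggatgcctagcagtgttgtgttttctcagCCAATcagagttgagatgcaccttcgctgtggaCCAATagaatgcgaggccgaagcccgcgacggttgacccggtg
Pttg1: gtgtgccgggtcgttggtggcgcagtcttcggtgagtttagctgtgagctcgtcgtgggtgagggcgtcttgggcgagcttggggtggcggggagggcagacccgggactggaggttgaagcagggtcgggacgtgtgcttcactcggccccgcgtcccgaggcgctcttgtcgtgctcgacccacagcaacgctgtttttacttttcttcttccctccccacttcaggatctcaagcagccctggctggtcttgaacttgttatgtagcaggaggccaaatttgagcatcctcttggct
Cdc25b, Kif23, Aurka, Ube2c and Cenpa carried CCAAT together with TTTGAA or TTCGAA, Cenpe and Nek2 carried CCAAT alone, and the Pttg1 window held none of the letters. In the GENCODE M21 gene models the 5′ end of Pttg1 is at 43426251, so its RefSeq window lies wholly within the gene. Bases before that 5′ end were not searched. The letters did not separate the members that were higher in CFUE cells: CCAAT with TTTGAA or TTCGAA was present in 75% of the 16 members with a window that were 1.5-fold or more higher in CFUE than in upper intermediate cells, and in 75% of the other 20.

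Over all kept cells, the summed level of the 43 members was highest in CFUE cells among the 4 erythroid groups. This was uneven over the plate. The median log2 member ratio of CFUE over Cd34-low BFUE cells was -0.03 in plate rows A to D, against 0.65 in E to H. The member sum, the CPM added over the 43 genes in 1 cell, ran from 614 through a median of 4082 to 15103 CPM in Cd34-high BFUE cells, and from 3876 through 7802 to 12999 CPM in Cd34-low BFUE cells. In lower intermediate cells it ran from 5274 through 6610 to 11536 CPM, and in upper intermediate cells from 5077 through 6486 to 11655 CPM. CFUE cells ran from 4582 through 9349 to 14856 CPM. The groups overlapped, but 9 of 23 CFUE cells stood above the highest upper intermediate cell, and 1, the cell of well D10, stood below the lowest. Of these 9, only the cell of well B12 lay in plate rows A to D. Without the cell of well D10, 19 members in place of 18 passed the 1.5-fold limit used below. The mean was 10068 CPM in CFUE cells, against 7380 CPM in upper intermediate cells, a ratio of 1.36.

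A larger share of CFUE cells had a high member sum, and the sum was also higher within the cells that had one. The line between high and low was set at 7039 CPM, the median of the 91 cells, with 20 cells within 10% of it. At or above the line were 1 of 8 Cd34-high BFUE cells, 9 of 15 Cd34-low BFUE cells (60%, exact binomial 95% interval 32.3 to 83.7%), 42.9% of lower intermediate cells (21.8 to 65.98%), 41.7% of upper intermediate cells (22.1 to 63.4%) and 73.9% of CFUE cells (51.6 to 89.8%). The intervals of CFUE and upper intermediate cells overlap. Of the 6 CFUE cells below the line, only that of well G12 lay in plate rows E to H. Among cells at or above the line, the mean was 11407 CPM in CFUE cells, against 9295 CPM in upper intermediate cells. Below it, the means lay close together, at 6276 CPM in CFUE cells and 6012 CPM in upper intermediate cells. Reading along the distributions, the first quartile of CFUE cells was 1.15 times that of upper intermediate cells, the median 1.44 times and the third quartile 1.46 times.

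**Figure D1:**
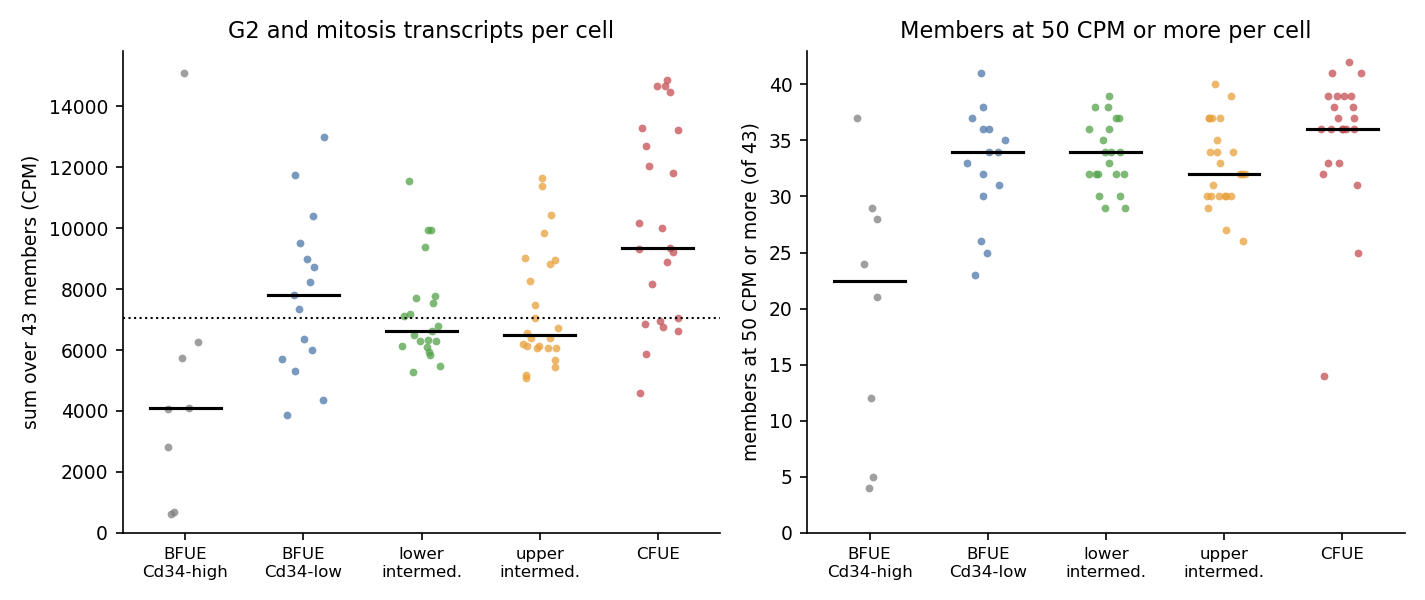
Left, the member sum (CPM added over the 43 genes) of each kept cell in the 5 groups, with black bars at the group medians and a dotted line at 7039 CPM, the median of the 91 cells. Right, the number of the 43 members at 50 CPM or more in the same cells, with medians of 34 in Cd34-low BFUE, 34 in lower intermediate, 32 in upper intermediate and 36 in CFUE cells.

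Nearly every cell of the 4 erythroid groups held reads of most members. The number of members with a read was 39 to 43 in Cd34-low BFUE cells, 39 to 43 in lower intermediate cells, 40 to 43 in upper intermediate cells and 36 to 43 in CFUE cells. The median cell had 34, 34, 32 and 36 members at 50 CPM or more in that order of groups. Cd34-high BFUE cells had from 4 to 37 members at 50 CPM or more, with a median of 22.5. Per kilobase of exon, over all kept cells, the most abundant members were Cdc20 at 216 CPM per kilobase, Ccnb2 at 200 CPM per kilobase and Ccna2 at 159 CPM per kilobase, and the least abundant was Cenpf at 2.28 CPM per kilobase.

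CFUE cells were set against upper intermediate cells first, since this was the step at which most members differed. By reads summed over the cells of a group, 18 of 43 members were 1.5-fold or more higher in CFUE cells and 0 were 1.5-fold or more lower. Over all 7743 genes at 10 CPM or more in either group, 7.98% were 1.5-fold or more higher and 9.7% lower. The median log2 ratio of the members was 0.47, against -0.01 for all genes. With 1 sample a gate no test was possible, and the exact intervals given with ratios cover counting error only. The size of the difference depended on the part of the plate: in rows A to D, with 11 CFUE and 12 upper intermediate cells, 11 members were 1.5-fold or more higher and the median log2 ratio was 0.30, while in rows E to H, with 12 and 12 cells, 22 members were and the median was 0.61. The share of all genes past 1.5-fold was not computed within either part, so these counts describe the members alone. The direction held in both parts for 31 members that were higher and 1 that was lower.

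**Figure D2:**
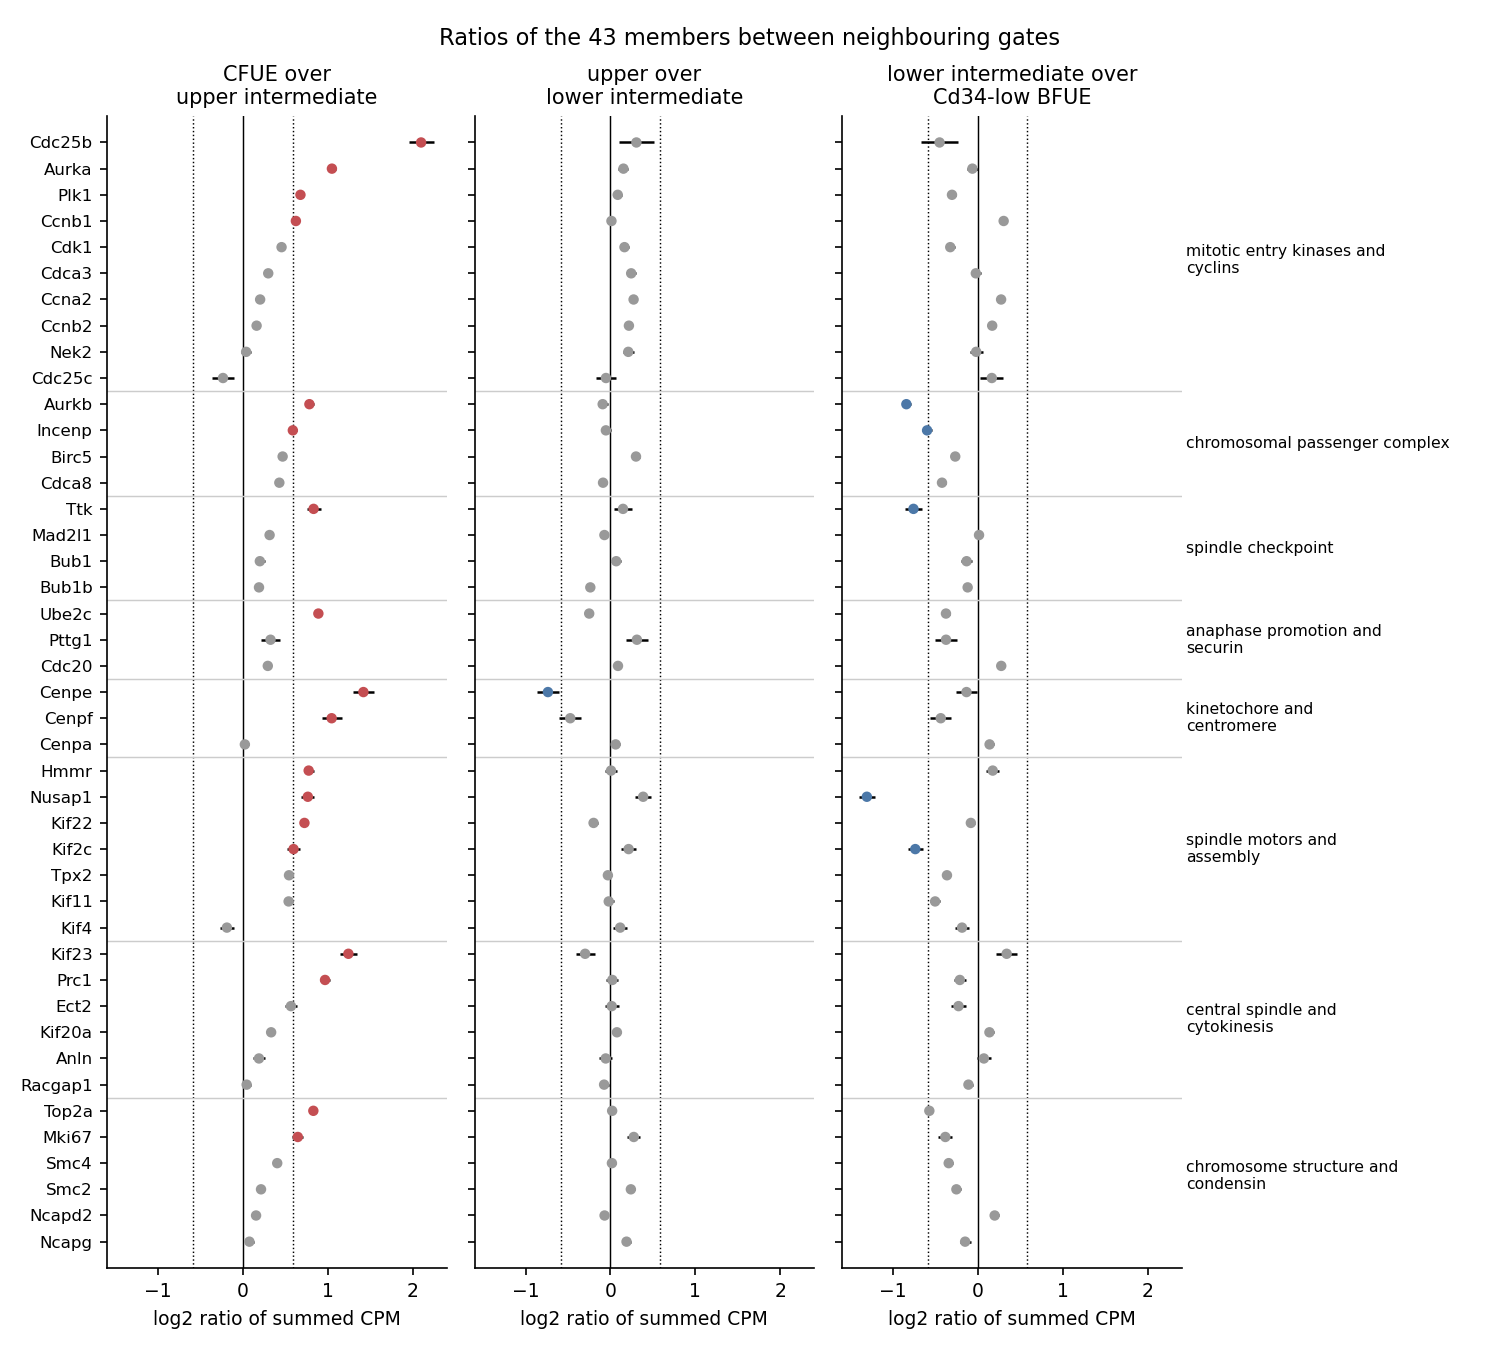
Log2 ratio of summed CPM for each of the 43 members in 3 comparisons, ordered by role and, within a role, by the ratio of CFUE over upper intermediate cells, with horizontal bars for the exact 95% interval of counting error. Dotted lines mark 1.5-fold, red points lie at or above it and blue points at or below it: 18 members are red in CFUE over upper intermediate cells, 1 is blue in upper over lower intermediate cells, and 5 are blue in lower intermediate over Cd34-low BFUE cells.

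Among the kinases, phosphatases and cyclins of mitotic entry, 4 of 10 were 1.5-fold or more higher in CFUE than in upper intermediate cells. Cdc25b, a phosphatase that activates Cdk1 with its cyclins, had the largest ratio of all members. It ran from 0 through a median of 4.73 to 366 CPM in CFUE cells, against 0 through 0.33 to 99.6 CPM in upper intermediate cells. The summed level was 56.8 CPM in CFUE cells and 13.3 CPM in upper intermediate cells, a ratio of 4.27 (3.87 to 4.73). Most cells of both groups lay near 0 and the ratio rested on a few high cells: the cell of well F12 held 26.8% of the CFUE reads, and without it the ratio was 3.26. Cdc25c, also a Cdc25 phosphatase, was lower, at 27.05 CPM in CFUE cells and 31.9 CPM in upper intermediate cells, a ratio of 0.85 (0.78 to 0.93).

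Aurka, the kinase of centrosomes and spindle poles, ran from 40.4 through a median of 281 to 673 CPM in CFUE cells, against 5.61 through 94 to 433 CPM in upper intermediate cells. Its summed level was 307 CPM in CFUE cells and 149 CPM in upper intermediate cells, a ratio of 2.06 (1.997 to 2.13), 1.61 within rows A to D and 2.29 within rows E to H. Plk1, a kinase that acts from mitotic entry to cytokinesis, had a ratio of 1.60, and Ccnb1, the main mitotic B-type cyclin, a ratio of 1.54. The ratio for Ccnb1 was nearly the same in rows A to D, at 1.55, as within rows E to H, at 1.52. Without the CFUE cell holding most of its reads, the Ccnb1 ratio was 1.47. Ccna2, the A-type cyclin of S and G2 phase, had the most reads of this role, from 187 through 791 to 1308 CPM in CFUE cells and from 366 through 765 to 1138 CPM in upper intermediate cells, a ratio of 1.15. Ccnb2, the second B-type cyclin, had a ratio of 1.12, Cdk1 1.37, Cdca3 1.23 and Nek2, a kinase of centrosome separation, 1.02.

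In the chromosomal passenger complex, which corrects faulty attachments of chromosomes, 2 of 4 members were 1.5-fold or more higher in CFUE than in upper intermediate cells. These were the kinase Aurkb, at 246 CPM in CFUE cells and 143 CPM in upper intermediate cells (ratio 1.72), and its scaffold Incenp, at 191 CPM and 128 CPM in the same order (ratio 1.5, and 1.45 without the CFUE cell holding most of its reads). Incenp lay just inside the limit of 1.5-fold and the cytokinesis regulator Ect2, with a ratio of 1.48, just outside. The Aurkb ratio was 1.09 within rows A to D and 2.28 within rows E to H. Birc5 (survivin), the member of the complex with most reads, ran from 277 through 386 to 642 CPM in CFUE cells, against 184 through 297 to 472 CPM in upper intermediate cells. Its ratio was 1.38 and that of Cdca8 (borealin) 1.34.

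Of the spindle checkpoint genes, 1 of 4 passed 1.5-fold in CFUE over upper intermediate cells. This was Ttk, the checkpoint kinase Mps1, at 90.3 CPM in CFUE cells and 50.8 CPM in upper intermediate cells (ratio 1.78), with 1.201 in rows A to D, against 2.50 for rows E to H. Bub1b (BubR1), with the most reads of the role, ran from 1.06 through 232 to 536 CPM in CFUE cells, against 90.1 through 237 to 601 CPM in upper intermediate cells, a ratio of 1.14. The medians of Bub1b were thus close and the ranges overlapped almost entirely. Mad2l1, which binds Cdc20 while the checkpoint is active, had a ratio of 1.24, and Bub1 a ratio of 1.15.

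Ube2c, the ubiquitin-conjugating enzyme of the anaphase-promoting complex, ran from 33.5 through a median of 292 to 674 CPM in CFUE cells, against 28.1 through 127 to 525 CPM in upper intermediate cells. Its summed level was 334 CPM in CFUE cells and 181 CPM in upper intermediate cells, a ratio of 1.85 (1.79 to 1.90). Cdc20, the activator of the same complex, ran from 167 through 457 to 985 CPM in CFUE cells and from 166 through 403 to 1196 CPM in upper intermediate cells, a ratio of 1.22. Pttg1 (securin), a target of the complex, had a ratio of 1.25, but the cell of well D10 held 29.2% of the CFUE reads and without it the ratio was 0.91. Of the Ube2c exon bases, 22.8% are shared with a neighbouring gene, Tnnc2, in GENCODE M21, and the strand setting of the counting is not given in the sources used here.

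At the kinetochore, Cenpe and Cenpf were higher in CFUE than in upper intermediate cells and the centromeric histone Cenpa was not. Cenpe, a motor that carries chromosomes to the spindle equator, ran from 0 through 49.2 to 411 CPM in CFUE cells, against 0 through 14.4 to 72.9 CPM in upper intermediate cells. The highest of the CFUE values was that of well D10, with 18.9% of the reads. The summed level was 58.02 CPM in CFUE cells and 21.7 CPM in upper intermediate cells, a ratio of 2.67 (2.46 to 2.90), and 2.22 without that cell. Cenpf, an outer kinetochore protein, had summed levels of 48.6 CPM in CFUE cells and 23.6 CPM in upper intermediate cells, a ratio of 2.06 (1.90 to 2.24). Cenpa ran from 0 through 237 to 359 CPM in CFUE cells, against 43.1 through 213 to 491 CPM in upper intermediate cells, a ratio of 1.01 (0.98 to 1.05).

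Among the spindle motors and assembly factors, 4 of 7 were 1.5-fold or more higher in CFUE than in upper intermediate cells. Hmmr, a spindle assembly factor, had a ratio of 1.71, Nusap1, which bundles spindle microtubules, 1.70, Kif22, a motor on chromosome arms, 1.65, and Kif2c, a microtubule depolymerase of centromeres, 1.51. Kif22 had the most reads of the role and ran from 2.14 through 271 to 617 CPM in CFUE cells, against 84.2 through 171 to 382 CPM in upper intermediate cells. Without the CFUE cell holding most of its reads, the ratio of Kif2c was 1.37. Kif2c was 1.97-fold higher in rows E to H but had a ratio of 0.97 in rows A to D. Tpx2, which activates Aurora A, had a ratio of 1.45 and Kif11 (Eg5), the motor that separates the poles, also 1.45. Kif4, a chromosome motor, had a ratio of 0.88 (0.83 to 0.92), from 67.2 CPM in CFUE cells and 76.8 CPM in upper intermediate cells.

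At the central spindle, 2 of 6 members passed 1.5-fold. Kif23, a motor of the centralspindlin complex, ran from 0 through 68.4 to 241 CPM in CFUE cells, against 0 through 25.0 to 155 CPM in upper intermediate cells, with a ratio of summed CPM of 2.36 (2.21 to 2.52). Prc1, which crosslinks the microtubules of the midzone, ran from 0 through 171 to 406 CPM in CFUE cells, against 0.65 through 64.02 to 251 CPM in upper intermediate cells, a ratio of 1.95 (1.88 to 2.03). Racgap1, the partner of Kif23 in centralspindlin, did not share its ratio: it stood at 169 CPM in CFUE cells and 164 CPM in upper intermediate cells, a ratio of 1.03. Kif20a ran from 0.71 through 294 to 479 CPM in CFUE cells, against 58.9 through 248 to 488 CPM in upper intermediate cells, a ratio of 1.26, and 29.3% of its exon bases are shared with the neighbouring Cdc23. The ratio was 1.48 for Ect2 and 1.14 for Anln (anillin).

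Top2a and Mki67 were the 2 of 6 genes of chromosome structure that passed 1.5-fold. Top2a, the topoisomerase that untangles sister chromosomes, ran from 3.17 through 465 to 1164 CPM in CFUE cells, against 1.94 through 228 to 879 CPM in upper intermediate cells, a ratio of 1.77. Mki67 (Ki-67), a coat protein of mitotic chromosomes, stood at 143 CPM in CFUE cells and 91.4 CPM in upper intermediate cells, a ratio of 1.56 and of 1.45 without the CFUE cell holding most of its reads. The condensin subunits were nearer to 1: the ratio was 1.32 for Smc4, 1.16 for Smc2, 1.11 for Ncapd2 and 1.05 for Ncapg.

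**Figure D3:**
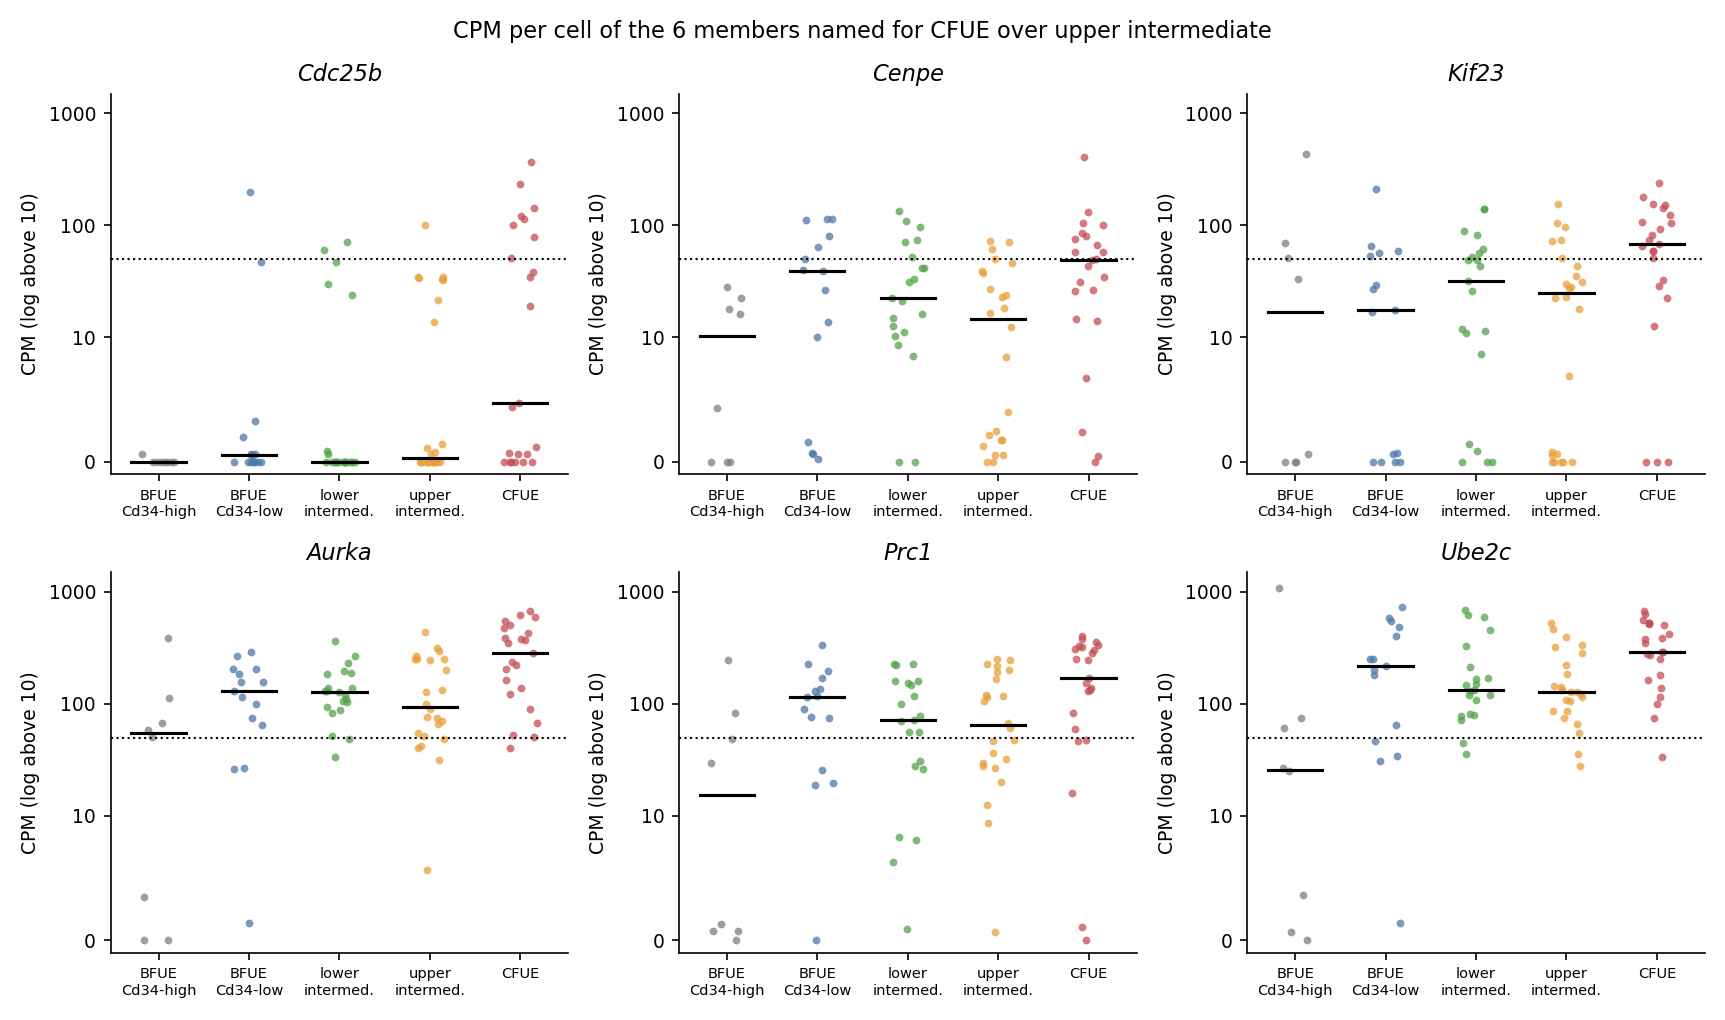
CPM of 6 members in each kept cell of the 5 groups, on an axis that is linear up to 10 CPM and logarithmic above, with black bars at medians and a dotted line at 50 CPM. Cdc25b, Cenpe and Kif23 cross 50 CPM in more CFUE than upper intermediate cells, while Aurka and Ube2c exceed 50 CPM in most cells of both groups and stand higher in CFUE cells, with Prc1 between.

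Whether shares of cells or levels per cell differed was asked by setting, for each member, the ratio of the shares of cells at 50 CPM or more beside the ratio of the mean CPM within those cells. Both leave out the CPM of cells below the line, so they need not add up to the ratio of mean CPM: for Cdc25b the log2 ratio of means was 2.15, with a log2 share ratio of 3.06 and a log2 level ratio of 0.60. What was left over was -1.51 for Cdc25b, -1.13 for Pttg1 and -1.08 for Cenpe on the log2 scale. In CFUE over upper intermediate cells the share was higher for 19 members, lower for 19 and equal for 5, and the level within cells was higher for 40 of 43. The median log2 ratio of shares was 0 and that of levels 0.41, and the level ratio exceeded the share ratio for 34 of 43 members. After each cell was thinned to 500000 reads it did so for 35. At 50 CPM, the 18 members that were 1.5-fold or more higher had a median log2 share ratio of 0.30 and a median log2 level ratio of 0.64. For such members the order reversed at higher lines. At 100 CPM, in 16 of them, the medians were 0.68 for shares and 0.53 for levels. At 200 CPM, in 11 of them, they were 1.25 and 0.29.

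Aurka was at 50 CPM or more in 95.7% of CFUE cells (78.1 to 99.9%) and 79.2% of upper intermediate cells (57.8 to 92.9%), and the mean within those cells was 317 CPM in CFUE cells against 176 CPM in upper intermediate cells. Ube2c was at 50 CPM or more in 95.7% of CFUE cells and 91.7% of upper intermediate cells, with means of 347 CPM and 192 CPM in the same order. Ccnb1, Birc5, Cdc20, Ccna2 and Mad2l1 were at 50 CPM or more in 100% of cells of both groups, so that only levels could differ. For Kif23, Cdc25b and Cenpe, picked after their values were seen, the share ratio was the larger. Other low members were mixed. At 50 CPM, Cenpf also had the larger share ratio, with a log2 share ratio of 1.38 and a log2 level ratio of 0.15. Ttk did not, with a log2 share ratio of 0.32 and a log2 level ratio of 0.74, nor did Pttg1, with 0.65 and 1.02. The Pttg1 values include the cell of well D10, which held 29.2% of its CFUE reads. Without that cell the Pttg1 ratio of summed CPM was 0.91. Kif23 was at 50 CPM or more in 69.6% of CFUE cells (47.1 to 86.8%) and 25% of upper intermediate cells (9.77 to 46.7%), with means of 109.5 CPM in CFUE cells and 91.97 CPM in upper intermediate cells within those cells. Cdc25b reached 50 CPM in 34.8% of CFUE cells (16.4 to 57.3%) and 4.17% of upper intermediate cells (0.11 to 21.1%), and Cenpe in 47.8% (26.8 to 69.4%) and 12.5% (2.66 to 32.4%).

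The answer moved with the line. At 10 CPM the level ratio exceeded the share ratio for 40 of 43 members, and at 20 CPM for 39. At 100 CPM it did so for 25 of 39 members that reached the line in both groups, and at 200 CPM for 14 of 32, where the median log2 share ratio was 0.45 and the median log2 level ratio 0.24. In these cells the members were thus present at low lines in about as many CFUE as upper intermediate cells, and more of the CFUE cells held them above 200 CPM.

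**Figure D4:**
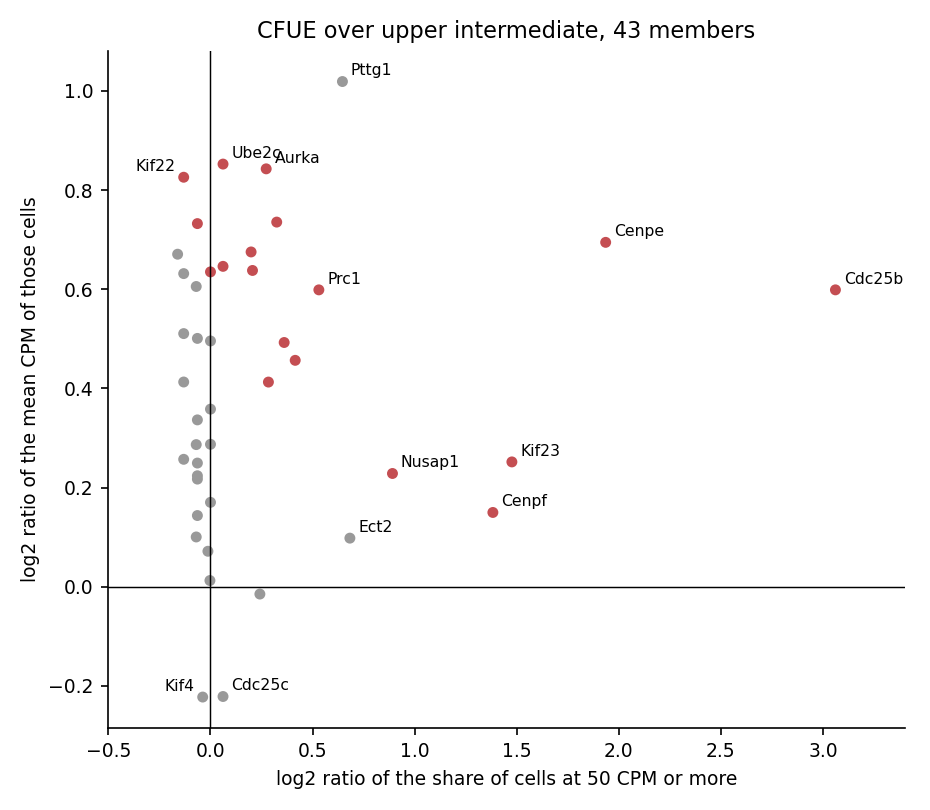
For each of the 43 members in CFUE over upper intermediate cells, the log2 ratio of the share of cells at 50 CPM or more (horizontal) and the log2 ratio of the mean CPM within those cells (vertical), with members 1.5-fold or more higher in red. Most points stand above 0 on the vertical axis and near 0 on the horizontal, and Cdc25b, Cenpe, Kif23 and Cenpf lie to the right.

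Other genes of G2 and M phase and genes of S phase give the setting of this step. Of 46 measured genes on a list of 48 other G2 and M genes, 7 were 1.5-fold or more higher in CFUE than in upper intermediate cells. Lower were 0, and the log2 ratio had a median of 0.20. Gtse1, a microtubule-binding regulator of G2, stood at 102 CPM in CFUE cells and 52.5 CPM in upper intermediate cells (ratio 1.94), and Cks2, a subunit of cyclin-dependent kinases, at 319 CPM and 196 CPM in the same order (ratio 1.63). The condensin subunit Ncaph had a ratio of 1.44 and the separase Espl1 a ratio of 1.42. On the S phase list of 30, 0 passed 1.5-fold upwards and 1 downwards, and the median was 0.04. The largest ratios at 50 CPM or more were 1.202 for Dscc1, a clamp loader subunit, 1.18 for Rrm1 (ribonucleotide reductase), and 1.14 for Tyms (thymidylate synthase).

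Between the intermediate gates the members were nearly level. In upper over lower intermediate cells, 0 members were 1.5-fold or more higher and 1 lower, where 7.34% of all genes were higher and 9.27% lower, and the median log2 ratio of members was 0.02. The lower one was Cenpe, at 21.7 CPM in upper and 36.2 CPM in lower intermediate cells, a ratio of 0.60 (0.55 to 0.66). Among members at 50 CPM or more, the largest ratios were those of Nusap1 at 1.31, Birc5 at 1.23, Mki67 and Ccna2 both at 1.21, and Cdca3 at 1.18. The smallest were Ube2c at 0.84, Bub1b at 0.85 and Kif22 at 0.87. The sign of the median differed between parts of the plate, being -0.076 within rows A to D and 0.17 within rows E to H, over all 43 members.

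In lower intermediate over Cd34-low BFUE cells, 5 members were 1.5-fold or more lower and 0 higher, where 17.7% of all genes were lower and 9.54% higher. A share of 5 in 43 is below that of all genes. The median log2 ratio was -0.19. Nusap1 was lowest, from 0 through 37.6 to 153 CPM in lower intermediate cells, against 0.68 through 54.04 to 278 CPM in Cd34-low BFUE cells, a ratio of 0.40 (0.38 to 0.43). Aurkb followed, at 153 CPM in lower intermediate and 273 CPM in Cd34-low BFUE cells (ratio 0.56), then Ttk (0.59), Kif2c (0.60) and Incenp (0.66). Aurkb and Incenp are chromosomal passenger genes, but with 5 members lower in all, no role is singled out. The largest ratios, all under 1.5-fold, were those of Kif23 (1.27), which lay under 50 CPM in both groups, and among members at 50 CPM or more those of Ccnb1 (1.23), Cdc20 (1.21), Ccna2 (1.21), Ncapd2 (1.15) and Hmmr (1.13). On the list of other G2 and M genes 10 of 46 were lower and 1 higher, and on the S phase list 0 of 30 were lower and 4 higher.

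From Cd34-low BFUE to CFUE the members therefore followed different courses. In summed CPM, 35 of 43 were highest in CFUE cells and 7 in Cd34-low BFUE cells, and 31 had their lowest level in an intermediate gate, 19 in the lower and 12 in the upper. The highest level was a median of 1.55 times the lowest, from 1.14 times for Racgap1 to 5.28 times for Cdc25b. Only 7 members were higher at each step. Ccna2 had the most reads of them, at 504 CPM in Cd34-low BFUE, 609 CPM in lower intermediate, 736 CPM in upper intermediate and 845 CPM in CFUE cells. The others were Ccnb1, Ccnb2, Cdc20, Cenpa, Hmmr and Kif20a, and for Cenpa, Ccnb1 and Hmmr some of these steps were of a few percent. Aurkb was lower in both intermediate gates than at either end, at 273, 153, 143 and 246 CPM in the same order of groups. Shares of all genes with such courses were not computed, so these counts describe the members alone.

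CFUE cells set directly against Cd34-low BFUE cells gave 8 members 1.5-fold or more higher and 0 lower, where 13.6% of all genes were higher and 24.9% lower. The median log2 ratio was 0.26, against -0.11 for all genes. The largest ratios were those of Cdc25b at 3.87, Kif23 at 2.43, Aurka at 2.20, Hmmr at 1.94 and Ccnb1 at 1.91, and the smallest those of Kif4 at 0.83, Bub1b at 0.89 and Nusap1 at 0.90. For Cdc25b, the cell of well H1 held 78.3% of the CPM added over Cd34-low BFUE cells, and without the cell of highest member sum in each group, which was that cell among Cd34-low BFUE cells, the ratio was higher, at 16.97. This comparison was uneven over the plate: 4 members were 1.5-fold or more higher in rows A to D, with 11 CFUE and 7 Cd34-low BFUE cells and a median log2 ratio of -0.03, and 23 in rows E to H, with 12 and 8 cells and a median of 0.65. Against all 23 BFUE cells, Cd34-high ones included, 15 members were 1.5-fold or more higher and 0 lower, where 13.7% of all genes were higher and 29.6% lower. With scaling factors that bring the median of all genes near 0, TMM or DESeq2 size factors, 14 members were 1.5-fold or more higher. For these factors and for the parts of the plate, the share of all genes past 1.5-fold was not computed. On the S phase list, 10 of 30 were 1.5-fold or more higher and 1 was lower.

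Cd34-high BFUE cells held the widest range of member levels. Set against Cd34-low BFUE cells, 29 members were 1.5-fold or more lower and 4 higher, where 25.4% of all genes were lower and 30.4% higher, and the median log2 ratio was -0.92. Kif4 was lowest among members at 50 CPM or more, at 19.5 CPM in Cd34-high and 80.7 CPM in Cd34-low BFUE cells (ratio 0.24), followed by Hmmr (0.25) and Aurkb (0.27). Cdc25b had 1 read in the 8 Cd34-high cells, a ratio of 0.0057 with a counting interval of 0.00014 to 0.032, and of 0.029 without the cell of highest member sum in each group. The 4 that were higher were Kif23 (2.25), Ccnb2 (1.61), Ncapd2 (1.56) and Ect2 (1.54), and the next was Cenpa (1.10). A single cell, that of well F1 with a member sum of 15103 CPM, carried part of this: without the cell of the highest member sum in each group, the ratio was 0.92 for Kif23, 1.40 for Ccnb2 and 1.05 for Ect2, and 1.54 for Ncapd2. The cells of wells B2, E2 and H2 had member sums of 697, 2809 and 614 CPM, below every cell of the 4 erythroid groups. The cells also differ in lineage genes, as given above: neutrophil and monocyte markers summed to 383 to 7216 CPM in Cd34-high cells and 1.32 to 184 CPM in Cd34-low BFUE cells, with Elane, Ly6c2, S100a8, S100a9 and Cebpe at 0 in both, and their part in the member levels was not tested.

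Member and S phase transcripts were then compared cell by cell. Within groups, the rank correlation of the member sum with the sum over the 30 S phase genes was -0.41 (Spearman, 91 cells, given as a description because cells share plate and sort). It was -0.76 in 15 Cd34-low BFUE cells, -0.83 in 21 lower intermediate cells, -0.47 in 24 upper intermediate cells and -0.24 in 23 CFUE cells. The 8 Cd34-high BFUE cells, with 0.095, had the opposite sign. Cells above the median of both sums numbered 0 of 15 in Cd34-low BFUE, 1 of 21 in lower intermediate, 6 of 24 in upper intermediate and 9 of 23 in CFUE. Cells below both medians numbered 2, 3, 4 and 1 in the same order of groups. Such counts depend on how many cells reached each median alone. The member median was reached by 9, 9, 10 and 17 cells, and the S phase median by 4, 10, 16 and 14, in that order. Joint counts expected from these were not computed. Among cells at or above the S phase median of 12927 CPM, the member sum ran from 5886 through 9060 to 14856 CPM in 14 CFUE cells, against 5077 through 6258 to 10426 CPM in 16 upper intermediate cells. Among cells below it, the sum ran from 4582 through 10163 to 14671 CPM in 9 CFUE cells, against 6073 through 7778 to 11655 CPM in 8 upper intermediate cells. Reads per cell varied little with the member sum (0.15 within groups), as did the number of genes detected (0.21).

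**Figure D5:**
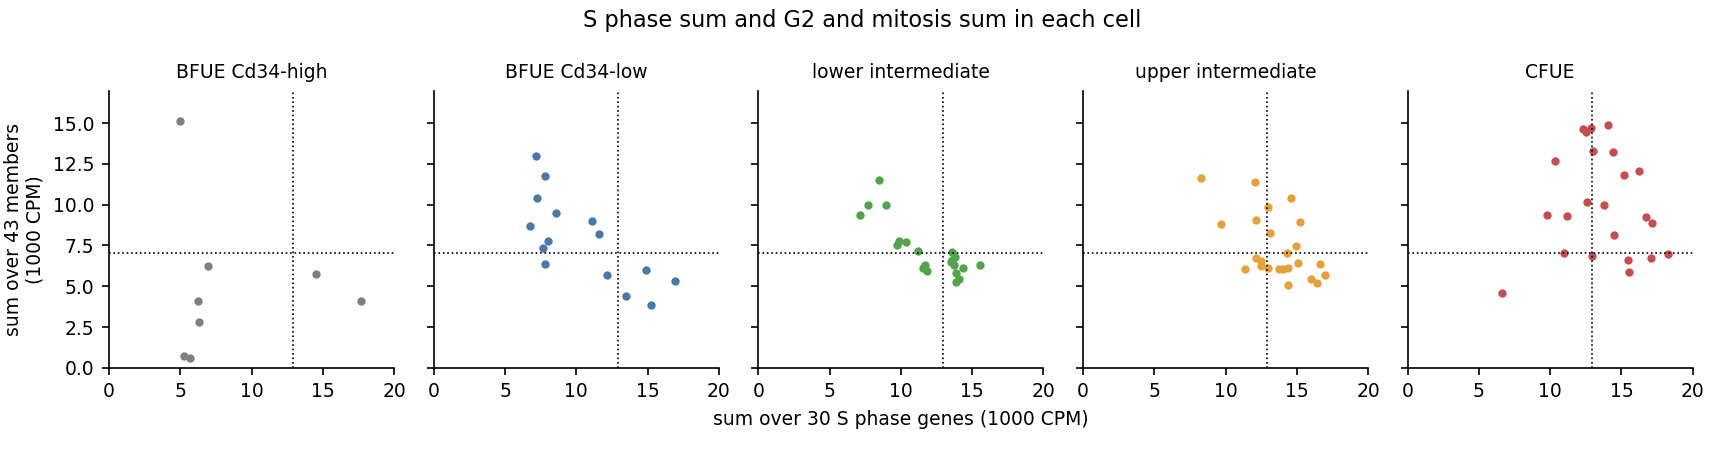
For each kept cell, the sum over 30 S phase genes (horizontal) and the sum over the 43 members (vertical), both in units of 1000 CPM, with 1 panel for each group and dotted lines at the medians of the 91 cells. The upper right field, high for both sums, holds 0 Cd34-low BFUE, 1 lower intermediate, 6 upper intermediate and 9 CFUE cells.

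The members varied together from cell to cell, with exceptions. Of the 903 pairs of members, 822 had a rank correlation above 0 within groups, with a median of 0.24. For single genes against a sum, the member of middle rank, Cdk1, had 0.51 with the sum of the rest. The member sum had a median rank correlation of 0.02 with 5519 expressed genes. The members most like the sum of the rest were Ccnb1 (0.77), Ube2c (0.75), Plk1 (0.75), Aurka (0.74) and Kif20a (0.73). The closest pairs were Kif11 with Top2a (0.77), Kif11 with Prc1 (0.76) and Prc1 with Top2a (0.75). Pttg1 (-0.07) and Mad2l1 (-0.06) did not follow the others, and Cenpa (0.16), Ccnb2 (0.19), Ncapd2 (0.22) and Ncapg (0.22) followed them weakly. Pttg1 was low in most cells, at a median of 27.9 CPM in CFUE and 34.9 CPM in upper intermediate cells, but Mad2l1 was at 50 CPM or more in every cell of the 4 erythroid groups, and Cenpa and Ccnb2 in most.

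Outside the list, the genes that ranked closest to the member sum within groups, among 5479 at 50 CPM or more in any group, were led by Kpna2 (0.66), an importin that carries proteins to the nucleus. It stood at 72.99 CPM in Cd34-high BFUE, 282 CPM in Cd34-low BFUE, 237 CPM in lower intermediate, 267 CPM in upper intermediate and 395 CPM in CFUE cells. Next were the guanine nucleotide exchange factor Arhgef39 (0.65), Ckap2l (0.64), Arhgap19 (0.63) and cyclin F, Ccnf (0.63). Jpt1, Arhgap11a, Tuba1c, Espl1, Cks2, Tubb4b, Slc25a37, Arl6ip1, Miip and Tacc3 completed the 15. Of these, 7 are on the list of other G2 and M genes, 0 on the S phase list and 8 on no list. Slc25a37 (mitoferrin), the mitochondrial iron importer of erythroid cells, stood at 9.19, 35.4, 16.9, 32.2 and 80.5 CPM in the same order of groups.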

How the data were processed

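The authors' deposited values are whole-number read counts per gene and well, without normalization, and were used as deposited. Reads had been aligned with STAR 2.4 to GRCm38 and counted with featureCounts, per the submitters' processing notes. Neither the release of the gene models nor the handling of strand and of reads common to several genes is given in the sources used here. Exon lengths and shared exon bases came from GENCODE M21, in which 16 members share exon bases with another gene and 7 share over 10%.

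CPM was computed from each cell's total, or from reads summed over the kept cells of a group. Wells under 50000 reads or 1000 genes were left out (5 wells). No 2 columns were identical. Comparisons took in genes that reached 10 CPM in at least 1 of the groups compared. Summed counts had exact Poisson intervals, ratios exact conditional binomial (Clopper-Pearson) intervals and shares of cells exact binomial intervals, at 95%, for counting error only. Ratios and intervals were tested on simulated data with known folds. Rank correlations within groups used log2(CPM + 10) after each group's median was subtracted.

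The gene lists and members were chosen with earlier results of these data known. Named with values by cell were the member with most reads in each role and the 6 largest ratios of CFUE over upper intermediate cells, at 50 CPM or more and with the same direction in both parts of the plate, and in each comparison the 5 largest and 3 smallest ratios at 50 CPM or more. Of the listed G2 and M and S phase genes, the 4 largest were named, except 1 S phase gene that is not reported here. Single members outside these rules were chosen after their values were seen. Alternatives were scaling by TMM (edgeR 4.0.16) or DESeq2 1.42.0 size factors, thinning to 500000 reads, other lines, folds and filters, totals without globin, mitochondrial and ribosomal protein genes, parts of the plate, all BFUE cells, and leaving out single cells. Tools were R 4.3.3, Python 3.11.15, scipy 1.17.1 and pandas 2.3.3 with numpy 2.4.6.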

Additional observations from a re-analysis of the deposited data

How the results depend on the processing

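With 1 sample a gate, each statement describes these cells. Medians within plate rows here take in only members at 10 CPM or more in those rows. No paired analysis was possible because no result comes from a test, and the replicate numbers, given in accession order, only name the wells. The count of members 1.5-fold or more higher in CFUE over upper intermediate cells stayed within 1.5 times of 18 except in plate rows A to D (11), and was 5 at 2-fold. In upper over lower intermediate cells, the count of higher members was 2 in rows E to H, the count of lower members 0 at 50 CPM or more, 4 in rows A to D, 0 in rows E to H, 2 without the cells of highest member sum and 0 at 2-fold, and the median log2 ratio -0.10 for rows A to D, against 0.17 for rows E to H. In lower intermediate over Cd34-low BFUE cells, the count higher was 1 in rows A to D, 1 in rows E to H and 2 without the cells of highest member sum, and the count lower 1 at 2-fold. Against all BFUE cells the count lower was 1 and the median -0.034. In CFUE over Cd34-low BFUE cells, the count higher was 14 with TMM, 14 with DESeq2 size factors, 4 in rows A to D, 23 in rows E to H, 15 against all BFUE cells and 3 at 2-fold. The count lower was 6 in rows A to D, and the median turned to -0.030 there and was 0.65 in rows E to H. In Cd34-high over Cd34-low BFUE cells, the count higher was 1 without the cells of highest member sum and 1 at 2-fold, and the count lower 18 in rows E to H and 18 at 2-fold. Its median was -1.41 in rows A to D, -0.46 in rows E to H and -1.44 without the cells of highest member sum. Shares of cells were 26.7% of Cd34-low BFUE, 14.3% of lower intermediate, 16.7% of upper intermediate and 47.8% of CFUE cells at the 75th percentile of the member sum, 0% of Cd34-high BFUE cells in rows A to D and 91.7% of CFUE cells in rows E to H. Levels exceeded shares in 14 members at 200 CPM. Without the CFUE cell holding most of its reads, chosen after seeing the data, Pttg1 turned to a ratio of 0.91. With the same step for each other member, the ratio left its counting interval for 34 and stayed inside it for 8. Without the cell of well D10 the count in CFUE over upper intermediate cells was 19. The cause of these differences was not tested. Shares of all genes past 1.5-fold were computed for whole groups in CPM only.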
